A study of Homo sapiens with 4 samples.

Results

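Genes that write, erase and read histone acetylation were examined after knockdown of ANP32B in Kasumi-1, a line established from acute myeloid leukemia (AML). The 35 genes were listed by name and comprised 13 acetyltransferases and acetyltransferase coactivators (writers), 18 deacetylases (erasers), 3 bromodomain proteins (readers) and the corepressor scaffold NCOR1. A gene was tested if it had at least 1 TPM in at least 2 of the 4 samples, and 33 of the 35 genes met this limit, among 16817 genes tested and 18567 in the table. TPM is a transcript level scaled to transcript length and to the sample total. HDAC9 was below the limit, with 0.286 and 1.56 TPM in the NC samples and 0.458 and 0.356 TPM in the sh-ANP32B samples. HDAC4 was not analysed here.

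The RNA-seq comparison held 2 NC samples and 2 sh-ANP32B samples, all of Kasumi-1 cells. The sh-ANP32B cells carried a short hairpin RNA against ANP32B, and the hairpin used in each of these samples was not stated. By the labels the NC cells were untreated and free of any hairpin, but by the study's methods a control hairpin was used, and this could not be settled. Nothing stated that the samples of a group came from separate cultures, so p-values measure the spread between these samples, which may be technical.

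Histone acetyltransferases transfer the acetyl group of acetyl-CoA to lysines on histone tails, which loosens the contact with DNA and creates docking sites for bromodomain proteins. Deacetylases remove the group again, the zinc-dependent HDACs by hydrolysis and the sirtuins by consuming NAD. ANP32B belongs to a family of acidic histone-binding proteins, some of which are known to mask histone tails from acetyltransferases. Kasumi-1 carries the RUNX1::RUNX1T1 fusion, a repressor that is known to bind the NCOR corepressors and, through them, HDACs. The study asked how loss of ANP32B acts on AML cells and on their histone acetylation. The transcripts of the enzymes, which are described here, are not a measure of acetylation itself.

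ANP32B transcripts were at 384 and 392 TPM in the NC samples and at 51.8 and 41.2 TPM in the sh-ANP32B samples, a log2 fold change of -3.04 (adjusted p = 0.00516 by limma). The adjusted p was 0.0929 when limma was run without its abundance trend. The fusion partner RUNX1T1 and the myeloid genes RUNX1, CD33, ANPEP and PTPRC lay between 15.6 and 203 TPM in all 4 samples. RUNX1T1, ANPEP and PTPRC were past the study's criterion in the higher direction, with log2 fold changes of 0.77, 0.61 and 0.59 and no overlap between groups, and did not pass the adjusted threshold (adjusted p = 0.0632, 0.0581 and 0.115 by limma). RUNX1 and CD33 had log2 fold changes of 0.15 and 0.14. The part of these marker differences in the results below was not tested. KIT was at 1.55 to 3.41 TPM, while CD34 and MPO were not analysed here. Of the lymphoid and erythroid markers listed, EPOR lay between 5.96 and 8.99 TPM and CD79A between 0 and 2.17 TPM, and the other listed markers of those cells and of stromal cells are not reported here. The sh-ANP32B samples differed from each other along GC content, the share of G and C bases in the longest annotated transcript of a gene. Over 15427 genes, the difference of replicate 2 from replicate 1 had a Spearman correlation of 0.577 with GC content in sh-ANP32B and of -0.206 in NC. These are correlations across genes, which are not independent replicates.

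Log2 fold changes below compare sh-ANP32B with NC on the log2(TPM + 1) scale, and are given with the standard error (SE) or the 95% interval of limma. The median over all 16817 genes tested was 0.08. HDAC10 alone among the 33 genes passed an adjusted p of 0.05, in the higher direction, and none passed in the lower direction. Among all genes tested, 2.14% passed in the higher direction and 1.18% in the lower direction. The number passing in the higher direction was 0 of 33 without either NC sample, where 1.52% (NC replicate 1 left out) and 1.36% (replicate 2) of all genes passed. It was 8 of 32 (25%) without sh-ANP32B replicate 1, where 14.6% of all genes passed, and 4 of 32 (12.5%) without replicate 2, where 12.1% did. At an unadjusted p under 0.05, 9 of the 33 genes were higher and 2 were lower, against 15.0% and 8.72% of all genes. The study's own criterion, an unadjusted p under 0.05 with an absolute log2 fold change over 0.5, was met by HDAC5, HDAC10, HDAC11 and SIRT3 in the higher direction, where 12.1% of all genes met it. HAT1 met it in the lower direction, where 6.55% of all genes did. In 17 of the 33 genes both sh-ANP32B samples lay above both NC samples, which held for 33.2% of all genes, and in 3 genes both lay below, against 21.4%. HDAC11 reached the level limit only in sh-ANP32B, so its direction was set by the filter. When it was left out, a choice made after seeing the data, 16 of 32 genes did not overlap in the higher direction. Of these 32 genes, 8 were higher at an unadjusted p under 0.05, and HDAC5, HDAC10 and SIRT3 met the study's criterion in the higher direction.

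**Figure D1:**
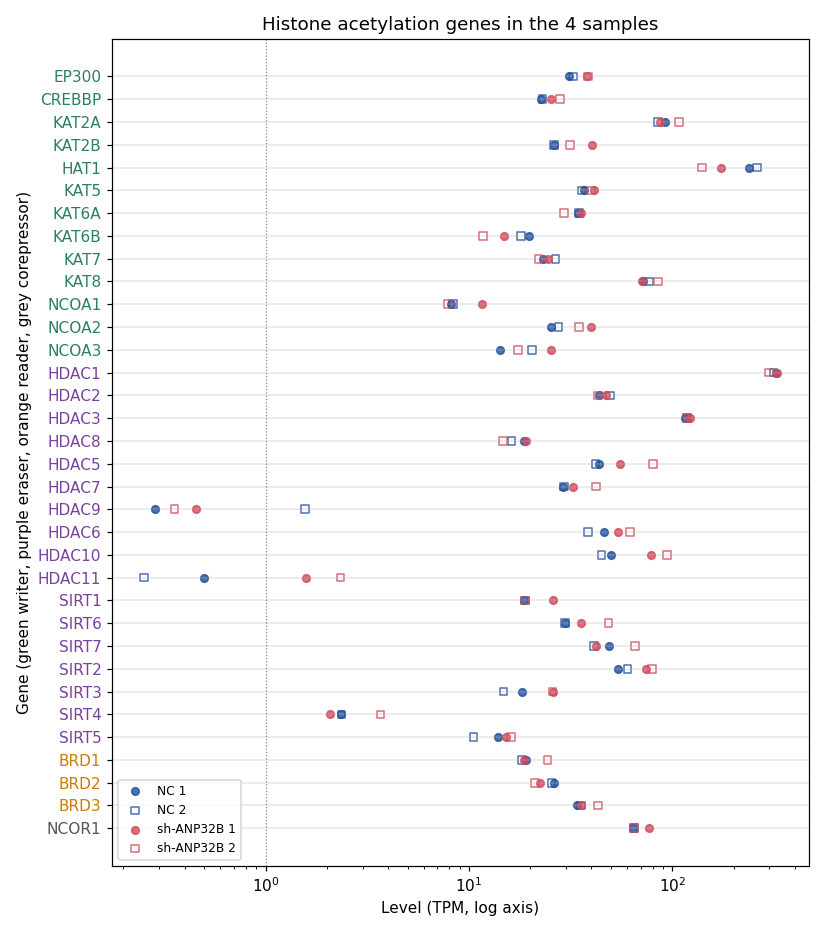
Level of each gene in TPM on a log axis, with 1 row per gene and 1 marker per sample (filled circle, replicate 1; open square, replicate 2; blue, NC; red, sh-ANP32B); the dotted line marks 1 TPM. HDAC1 and HAT1 lie farthest to the right, and HAT1 is the abundant gene whose red markers (174 and 139 TPM) stand apart from its blue ones (238 and 261 TPM).

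In NC cells, HDAC1 at a mean of 318 TPM and HAT1 at 250 TPM were the most abundant of the genes, and 2.13% and 2.88% of all genes tested were higher, respectively. HDAC3 followed at 116 TPM and the acetyltransferase KAT2A at 88.1 TPM. BRD3, at 34.8 TPM, was the most abundant of the 3 readers. SIRT4 at 2.35 TPM and HDAC11 at 0.376 TPM were the lowest of the 33 genes tested.

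Among the writers, none of 13 passed the adjusted threshold in limma, and at an unadjusted p under 0.05 HAT1 and KAT6B were lower and KAT2B and NCOA2 were higher. The median log2 fold change of the writers was 0.15. Their values did not overlap between groups in 7 genes, with 5 higher (38.5%) and 2 lower (15.4%) in sh-ANP32B, against 33.2% and 21.4% of all genes.

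HAT1 had the most negative log2 fold change of all 33 genes. It encodes the acetyltransferase that acts on newly made histone H4 before deposition into chromatin, and works with the histone chaperone subunit RBBP7. HAT1 (ENSG00000128708; chr2:171922448-171983686, plus strand, hg38) was at 238 and 261 TPM in the NC samples and at 174 and 139 TPM in the sh-ANP32B samples. Both knockdown samples were below both NC samples, and the group mean went from 250 ± 16.2 TPM to 157 ± 24.4 TPM (SD, n = 2), or 62.8% of NC. The log2 fold change was -0.68 (95% interval -1.04 to -0.32) and did not pass the threshold (adjusted p = 0.0621 by limma). It passed in 5 of 10 alternative analyses, among them the correction for GC content (-0.69, adjusted p = 0.00674 by limma), and without sh-ANP32B replicate 1 or replicate 2, where the adjusted p was 0.00107 or 0.00805. Without NC replicate 1 or replicate 2 the adjusted p was 0.258 or 0.442. In bulk RNA a smaller share of HAT1-expressing cells and less HAT1 RNA per cell cannot be told apart.

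The promoters of HAT1 and HDAC10 are shown because these genes had the lowest adjusted p of the set in the lower and in the higher direction. Each sequence is the 250 bases before the RefSeq gene start (GRCh38.p14), 5′ to 3′ on the strand of the gene, and capitals mark the GC box GGGCGG and the CCAAT box CCAAT on either strand.
HAT1: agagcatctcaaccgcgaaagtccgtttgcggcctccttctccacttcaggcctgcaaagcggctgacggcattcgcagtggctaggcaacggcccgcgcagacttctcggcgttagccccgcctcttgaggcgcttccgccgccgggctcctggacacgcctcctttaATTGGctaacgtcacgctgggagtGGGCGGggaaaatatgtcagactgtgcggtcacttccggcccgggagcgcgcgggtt
HDAC10: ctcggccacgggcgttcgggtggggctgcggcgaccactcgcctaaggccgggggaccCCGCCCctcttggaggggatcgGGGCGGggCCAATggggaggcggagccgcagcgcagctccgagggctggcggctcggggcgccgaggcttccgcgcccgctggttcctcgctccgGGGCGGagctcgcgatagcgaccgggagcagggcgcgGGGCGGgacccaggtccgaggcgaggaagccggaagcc
The HAT1 sequence (chr2:171922211-171922460, plus strand) was 64.0% G and C and held 1 GC box and 1 CCAAT box. The HDAC10 sequence (chr22:50251266-50251515, minus strand) was 78.0% G and C and held 4 GC boxes and 1 CCAAT box. Neither held the E-box CACGTG or the E2F-like word TTCCCGCC, searched on both strands. Over 35116 RefSeq promoters of this length, GGGCGG was found in 42.6%, CCAAT in 32.01%, CACGTG in 6.35% and TTCCCGCC in 2.72%. Of 54 promoters of 30 of the listed genes, 27 held GGGCGG, 12 held CCAAT, 3 held CACGTG and 4 held TTCCCGCC.

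EP300 and CREBBP, the paralogous coactivators that acetylate histone H3 at enhancers, were both slightly above NC without passing the test. EP300 was at 31.1 and 32.5 TPM in NC and at 37.9 and 38.6 TPM in sh-ANP32B, with no overlap (log2 fold change 0.26, SE 0.14, adjusted p = 0.330 by limma). CREBBP was at 22.7 and 22.9 TPM in NC and at 25.3 and 28.0 TPM in sh-ANP32B, a log2 fold change of 0.21 (adjusted p = 0.459 by limma). Neither gene of the pair had a lower value in any knockdown sample than in any NC sample. Such a separation in the higher direction held for 33.2% of all genes, whose median log2 fold change was 0.08. After GC correction the log2 fold change was 0.20 for EP300 and 0.07 for CREBBP. The upper bounds of the 95% intervals were 0.60 for EP300 and 0.59 for CREBBP, and the lower bounds were -0.09 and -0.16.

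KAT2A and KAT2B are the paralogous catalytic subunits of the SAGA and ATAC coactivator complexes. KAT2A was at 91.5 and 84.7 TPM in NC and at 87.0 and 107 TPM in sh-ANP32B, and its groups overlapped (log2 fold change 0.13, or -0.06 after GC correction). KAT2B was at 26.3 and 26.1 TPM in NC and at 40.1 and 31.4 TPM in sh-ANP32B, with no overlap. Its log2 fold change of 0.42 (SE 0.17) did not pass the test (adjusted p = 0.203 by limma), and did so after GC correction (0.42, adjusted p = 0.0405 by limma).

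Of the 5 MYST acetyltransferases, KAT6B was the one with non-overlapping lower values before GC correction. After GC correction 3 of the 5 did not overlap in the lower direction, KAT6A, KAT6B and KAT7, against 31.0% of all genes. KAT6A and KAT6B are paralogous histone H3 acetyltransferases that assemble on BRPF scaffolds. KAT6B was at 19.8 and 18.0 TPM in NC and at 14.9 and 11.7 TPM in sh-ANP32B, a log2 fold change of -0.49 (SE 0.19, adjusted p = 0.193 by limma). KAT6A overlapped between groups, at 34.3 and 34.6 TPM in NC and at 35.4 and 29.4 TPM in sh-ANP32B. KAT7, which acetylates histone H3 and H4, also at replication origins, had a log2 fold change of -0.09, and KAT8, the acetyltransferase of the MSL complex, one of 0.07 that turned to -0.02 with median-of-ratios scaling and to -0.04 after GC correction. KAT5, the catalytic subunit of the NuA4 complex, had one of 0.15, or -0.03 after GC correction, and 38.6% of its annotated exon bases are shared with RNASEH2C on the opposite strand, so its value is uncertain. The library kit does not mark strand.

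NCOA2 had the highest log2 fold change of the writers. The 3 p160 coactivators NCOA1, NCOA2 and NCOA3 bind nuclear receptors and bring in p300 and CBP, and reported acetyltransferase activity of their own is weak. NCOA2 was at 25.2 and 27.5 TPM in NC and at 39.9 and 34.8 TPM in sh-ANP32B, both above NC (log2 fold change 0.49, SE 0.16, adjusted p = 0.133 by limma). It passed after GC correction (0.47, adjusted p = 0.0242 by limma). NCOA1 and NCOA3 overlapped between groups, with log2 fold changes of 0.20 and 0.28.

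**Figure D2:**
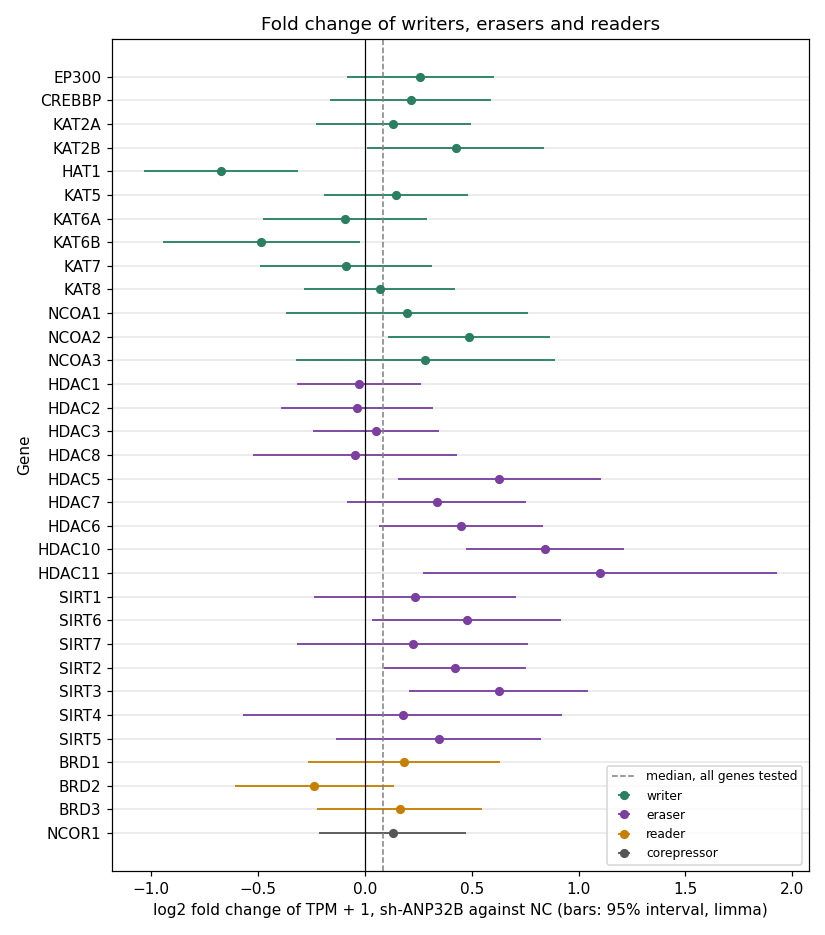
Log2 fold change of log2(TPM + 1), sh-ANP32B against NC, for the 33 genes tested (green, writers; purple, erasers; orange, readers; grey, NCOR1); points are limma estimates, bars are 95% intervals, and the dashed line is the median of all genes tested (0.08). HAT1 and KAT6B have intervals below 0, the class I deacetylases HDAC1, HDAC2, HDAC3 and HDAC8 sit at 0, and the other HDACs and all 7 sirtuins have estimates above 0.

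Among the erasers, 1 of 16 passed the adjusted threshold in limma, HDAC10, and 7 of 16 were higher at an unadjusted p under 0.05, against 2.14% and 15.0% of all genes. The median log2 fold change of the erasers was 0.34. In 11 of them (68.8%, against 33.2% of all genes) both sh-ANP32B samples lay above both NC samples, in none did both lie below, and the groups overlapped in the other 5. HDAC11 entered the test through its sh-ANP32B values alone. When it was left out, a choice made after seeing the data, 6 of 15 erasers were higher at an unadjusted p under 0.05, 10 of 15 did not overlap in the higher direction, and the median was 0.34.

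The 4 class I deacetylases stayed near their NC level. HDAC1 and HDAC2 are the paralogous catalytic subunits of the SIN3, NuRD and CoREST complexes, HDAC3 is the enzyme of the NCOR complex and HDAC8 acts on cohesin. HDAC1, the most abundant eraser, was at 323 and 314 TPM in NC and at 326 and 299 TPM in sh-ANP32B. Its log2 fold change was -0.03, with a 95% interval of -0.32 to 0.26. HDAC2 had a log2 fold change of -0.04 (95% interval -0.40 to 0.32) and HDAC8 one of -0.05 (95% interval -0.52 to 0.43). HDAC3 had one of 0.05 (95% interval -0.24 to 0.34), which was below 0 with median-of-ratios scaling (-0.04), with upper-quartile scaling (-0.01) and after GC correction (-0.02). None of the 4 had an unadjusted p under 0.05, and these intervals leave room for changes of that size.

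HDAC10 rose in the knockdown cells. It is a class IIb enzyme known as a cytoplasmic polyamine deacetylase. HDAC10 (ENSG00000100429; chr22:50245183-50251405, minus strand, hg38) was at 49.9 and 44.9 TPM in the NC samples and at 78.2 and 94.0 TPM in the sh-ANP32B samples. The groups did not overlap, and the mean went from 47.4 ± 3.56 TPM to 86.1 ± 11.2 TPM (SD, n = 2), or 182% of NC. The log2 fold change was 0.84 (95% interval 0.47 to 1.21, adjusted p = 0.0448 by limma). The call was lost with median-of-ratios scaling (adjusted p = 0.0573 by limma), upper-quartile scaling (0.0518), no abundance trend (0.122), and without NC replicate 1 (0.124) or NC replicate 2 (0.272). HDAC10 shares 55.8% of its annotated exon bases with MAPK12 on the same strand, so that its reads could be divided between these genes in a way the sources do not state, and its value is uncertain. MAPK12 was at 146 and 124 TPM in NC and at 136 and 184 TPM in sh-ANP32B, with overlap and a log2 fold change of 0.24 (adjusted p = 0.476 by limma). HDAC10 had the highest GC content of the 33 genes, 67.2%, and its log2 fold change after GC correction was 0.56 (adjusted p = 0.0243 by limma).

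HDAC6, the other class IIb enzyme and the main tubulin deacetylase, was at 46.1 and 38.5 TPM in NC and at 54.1 and 61.8 TPM in sh-ANP32B. Its groups did not overlap (log2 fold change 0.45, SE 0.16, adjusted p = 0.159 by limma). Class IIa enzymes shuttle between cytoplasm and nucleus, have little activity of their own and repress MEF2 targets. HDAC5, of this class, was at 43.5 and 41.9 TPM in NC and at 55.1 and 80.4 TPM in sh-ANP32B, and replicate 2 was the higher of the knockdown samples. Its log2 fold change was 0.63 (SE 0.20, adjusted p = 0.125 by limma), or 0.42 after GC correction (adjusted p = 0.0392 by limma). HDAC5 shares 24.0% of its exon bases with G6PC3 on the opposite strand, which was at 38.2 and 39.8 TPM in NC and at 21.5 and 33.9 TPM in sh-ANP32B. HDAC7 was at 28.9 and 29.4 TPM in NC and at 32.5 and 42.1 TPM in sh-ANP32B, a log2 fold change of 0.34 (adjusted p = 0.301 by limma).

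HDAC11, the single class IV enzyme, known as a lysine defatty-acylase, was near the limit of measurement. It was at 0.50 and 0.25 TPM in NC and at 1.59 and 2.34 TPM in sh-ANP32B. Its log2 fold change of 1.10 (SE 0.35, adjusted p = 0.124 by limma) was the highest of the 33 genes. Since it passed the level limit only in sh-ANP32B, it had to be higher there. Counts and medians that include it hold a gene whose direction was set by the filter, and its part in them is no support.

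All 7 sirtuins had log2 fold changes above 0, as did 57.9% of all genes tested, and none passed the adjusted threshold in limma (3 were higher at an unadjusted p under 0.05). The median over the sirtuins was 0.34. Without sh-ANP32B replicate 2 the log2 fold changes of SIRT7 and SIRT4 were -0.08 and -0.13. SIRT3, the main mitochondrial deacetylase, was at 18.1 and 14.8 TPM in NC and at 26.0 and 25.7 TPM in sh-ANP32B. Both knockdown samples were above both NC samples (log2 fold change 0.63, SE 0.18, adjusted p = 0.0995 by limma). SIRT2, a cytoplasmic deacetylase of tubulin and histone H4, was at 54.0 and 60.2 TPM in NC and at 74.3 and 79.1 TPM in sh-ANP32B, again with no overlap (log2 fold change 0.42, SE 0.14, adjusted p = 0.135 by limma). After GC correction the value was 0.22.

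The nuclear sirtuins SIRT1, SIRT6 and SIRT7, which act on histones and transcription factors at chromatin, were less even between the knockdown samples. SIRT6 was at 29.7 and 29.5 TPM in NC and at 35.7 and 48.5 TPM in sh-ANP32B, a log2 fold change of 0.48 (adjusted p = 0.187 by limma) and of 0.22 after GC correction. SIRT1 was at 18.5 and 18.8 TPM in NC, and at 25.9 TPM in sh-ANP32B replicate 1 and 18.9 TPM in replicate 2. SIRT7 overlapped between groups, with 65.4 TPM in sh-ANP32B replicate 2 and 42.3 TPM in replicate 1. Of the other mitochondrial sirtuins, SIRT5, known as a desuccinylase, was at 13.9 and 10.5 TPM in NC and at 15.1 and 16.1 TPM in sh-ANP32B, while SIRT4 overlapped at 2.07 to 3.67 TPM over the 4 samples.

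BRD2 was the reader with values lower in both knockdown samples. BRD2 and BRD3 are BET proteins that bind acetylated histone tails at active genes, and BRD1 is a scaffold of MYST acetyltransferase complexes. BRD2 was at 26.2 and 25.4 TPM in NC and at 22.5 and 21.0 TPM in sh-ANP32B, a log2 fold change of -0.24 (SE 0.16, adjusted p = 0.409 by limma) and of -0.34 after GC correction (adjusted p = 0.0990 by limma). BRD3, the most abundant of the 3 in NC, was at 34.0 and 35.5 TPM in NC and at 35.4 and 43.1 TPM in sh-ANP32B, and overlapped. BRD1 overlapped as well, with a log2 fold change of 0.18. None of the readers had an unadjusted p under 0.05 in limma.

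NCOR1, which holds HDAC3 in the corepressor complex, was at 64.0 and 64.5 TPM in NC and at 76.3 and 65.0 TPM in sh-ANP32B. Its log2 fold change was 0.13 (95% interval -0.21 to 0.47, adjusted p = 0.639 by limma).

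Within a sample TPM can be summed over genes, and the erasers then stood higher against the writers in the knockdown samples. The 13 writers summed to 643 and 675 TPM in NC and to 628 and 592 TPM in sh-ANP32B. The erasers summed to 854 and 832 TPM in NC and to 958 and 1014 TPM in sh-ANP32B. This sum includes enzymes described above as cytoplasmic or mitochondrial. The class I HDACs in it summed to 500 and 498 TPM in NC and to 515 and 476 TPM in sh-ANP32B, with overlap. The ratio of erasers to writers was 1.33 and 1.23 in NC and 1.53 and 1.71 in sh-ANP32B, without overlap, for means of 1.28 ± 0.07 and 1.62 ± 0.13 (SD, n = 2). A test of 2 against 2 samples by exact permutation cannot give a two-sided p under 0.333, and the difference of writers from erasers was not tested. HAT1 made up 37.1% and 38.7% of the writer sum in NC and 27.7% and 23.6% in sh-ANP32B. Without HAT1 the writers summed to 404 and 414 TPM in NC and to 454 and 453 TPM in sh-ANP32B, and stood higher in sh-ANP32B. With HAT1 alone left out, the ratio of erasers to writers overlapped between groups by a narrow margin. Without HAT1 and HDAC1, the most abundant gene of each class, the ratio was 1.31 and 1.25 in NC. It was 1.39 and 1.58 in sh-ANP32B, again without overlap. The part of HAT1 in the separation was not tested.

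**Figure D3:**
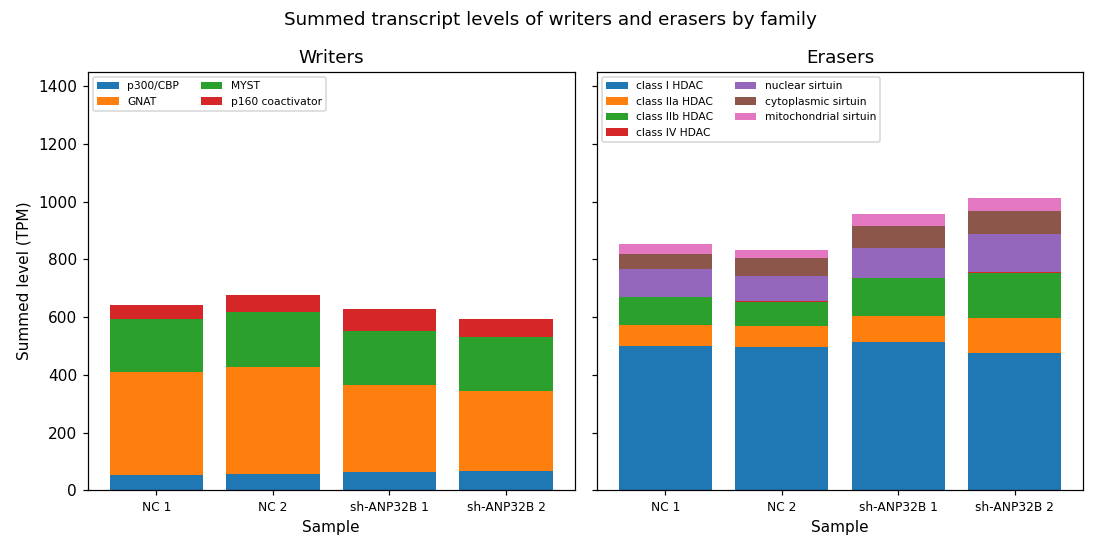
Summed level in TPM of the writers (left) and of the erasers (right) in each sample, stacked by enzyme family. The GNAT layer, which holds HAT1, is thinner in the sh-ANP32B samples (301 and 278 TPM) than in NC (356 and 372 TPM), and the class I HDAC layer is alike in all samples (476 to 515 TPM) while the layers above it are thicker in sh-ANP32B.

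The make-up of the erasers also differed. Class I enzymes made up 74.7% and 76.1% of the HDAC sum in NC and 69.9% and 62.9% in sh-ANP32B. The class IIb sum was 96.0 and 83.4 TPM in NC against 132 and 156 TPM in sh-ANP32B. The class IIa sum was 72.7 and 72.8 TPM against 88.1 and 123 TPM, and the sirtuin sum 185 and 178 TPM against 221 and 257 TPM. Each of these sums was higher in both knockdown samples, and higher in replicate 2 than in replicate 1.

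Of 6 paralog pairs compared by the ratio of their levels in each sample, KAT6A to KAT6B and BRD2 to BRD3 did not overlap between groups. The KAT6A to KAT6B ratio was 1.74 and 1.93 in NC and 2.38 and 2.51 in sh-ANP32B. The BRD2 to BRD3 ratio was 0.770 and 0.715 in NC and 0.635 and 0.488 in sh-ANP32B. The ratios EP300 to CREBBP, KAT2A to KAT2B, HDAC1 to HDAC2 and NCOA1 to NCOA3 overlapped. The planned pairs HDAC4 with HDAC5 and HDAC7 with HDAC9 were not compared, as HDAC4 was not analysed and HDAC9 was below the limit. No share over other gene pairs was obtained, and an exact permutation test of 2 against 2 samples cannot give a two-sided p under 0.333. The number of separated pairs is therefore a description only.

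The difference between the knockdown samples followed GC content in these genes as well. Across the 33 genes the difference of sh-ANP32B replicate 2 from replicate 1 had a Spearman correlation of 0.800 with GC content, and the log2 fold change had one of 0.457. These points share their libraries and are given as a description. The median GC content was 45.4% for the writers, 55.2% for the erasers, 44.1% for the class I HDACs and 60.6% for the HDACs of classes II and IV. Replicate 2 was above replicate 1 in 10 of 16 erasers and in 4 of 13 writers. The median log2 fold change of the erasers was 0.48 without sh-ANP32B replicate 1 and 0.26 without replicate 2. That of the writers was 0.12 and 0.14. How far GC content takes part in the difference between writers and erasers was not tested.

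**Figure D4:**
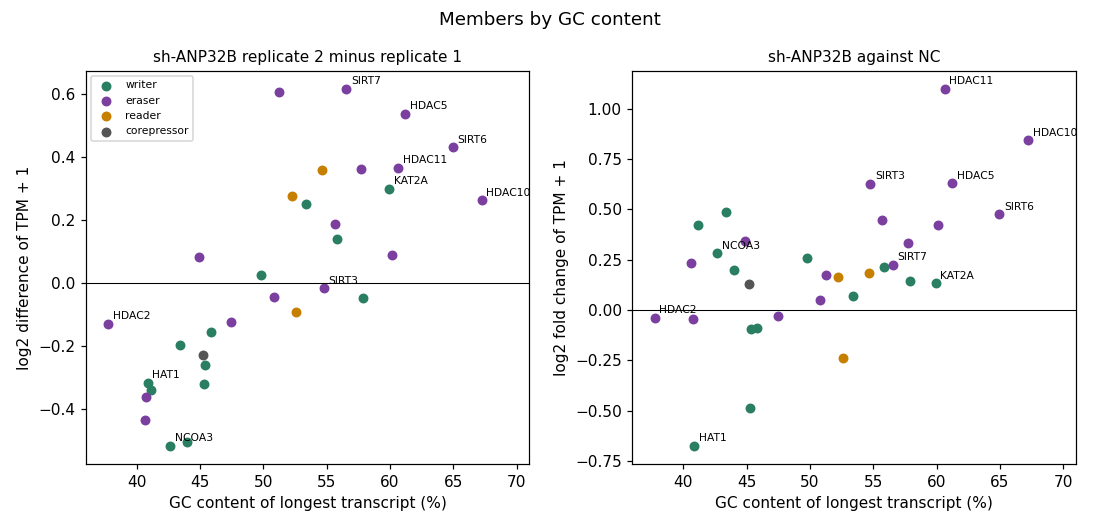
Log2 difference of TPM + 1 between the sh-ANP32B samples (left, replicate 2 minus replicate 1) and log2 fold change of sh-ANP32B against NC (right), plotted over transcript GC content (%), with 1 point per gene (green, writers; purple, erasers; orange, readers; grey, NCOR1). In the left panel GC-poor genes such as NCOA3 and HAT1 lie below 0 and GC-rich genes such as HDAC5 and SIRT6 lie above it, while in the right panel HAT1 (GC content 40.9%) and HDAC10 (67.2%) lie near the ends of both axes.

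With GC content corrected within each sample, the median log2 fold change went from 0.15 to -0.03 for the writers, from 0.34 to 0.22 for the erasers and from 0.63 to 0.42 for the HDACs of classes II and IV. Without HDAC11 it went from 0.34 to 0.22 for the erasers and from 0.54 to 0.36 for the HDACs of classes II and IV. A median over classes II and IV together was not planned. That group leaves out the class I HDACs, which lay near 0, so its high median is no support. The median of all genes tested went to 0.00. After the correction 5 of the 33 genes (15.2%) passed the adjusted threshold, against 16.6% of the 15427 genes with a GC value. HAT1 passed in the lower direction, as did 8.72% of those genes, and KAT2B, NCOA2, HDAC5 and HDAC10 in the higher direction, as did 7.90%. Both sh-ANP32B samples were then above NC in 10 of 16 erasers (9 of 15 without HDAC11) and below in 1, and above in 5 and below in 5 of 13 writers. For all genes these shares were 30.7% above and 31.0% below.

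**Figure D5:**
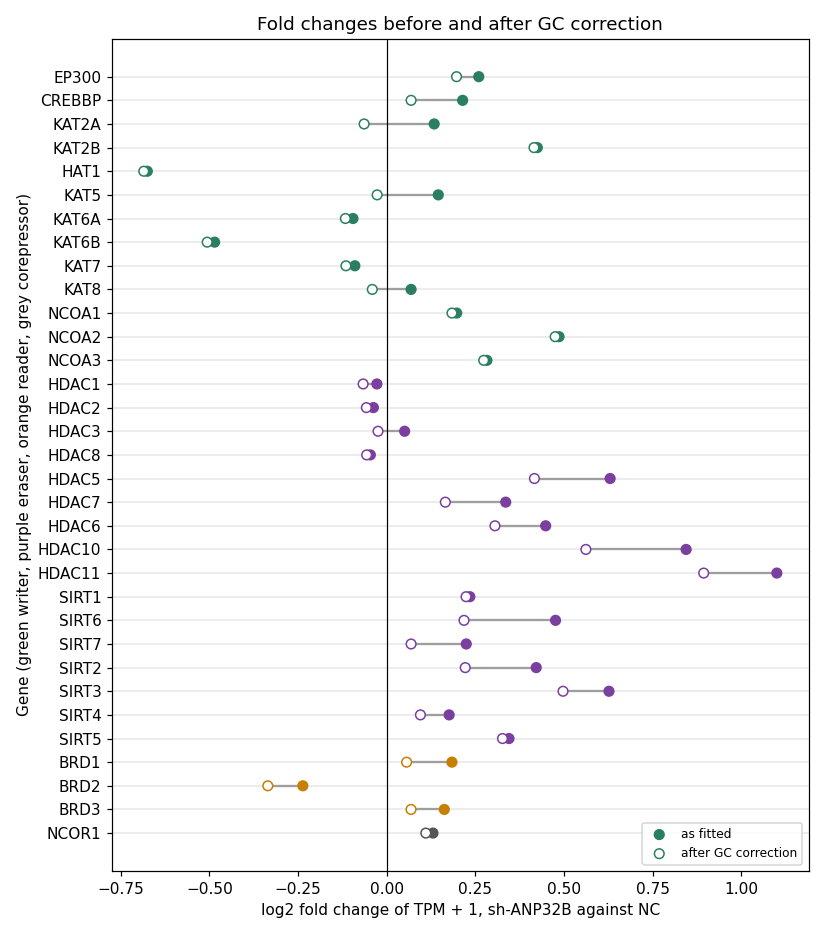
Log2 fold change of log2(TPM + 1), sh-ANP32B against NC, as fitted (filled) and after correction for GC content (open), joined by a line for each of the 33 genes (green, writers; purple, erasers; orange, readers; grey, NCOR1). HAT1 hardly moves (-0.68 to -0.69), HDAC10 moves from 0.84 to 0.56, and SIRT6 from 0.48 to 0.22.

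The partners of these enzymes, other readers and the enzymes that supply acetyl-CoA and NAD were listed as a further 123 genes, of which 117 were tested. In limma, 2 of the 117 (1.71%) passed the adjusted threshold in the higher direction and none in the lower direction, against 2.14% and 1.18% of all genes. The number passing in the higher direction was 1 without NC replicate 1, 0 without NC replicate 2, 14 (11.97%, against 14.6% of all genes) without sh-ANP32B replicate 1 and 18 (15.4%, against 12.1%) without replicate 2. At an unadjusted p under 0.05, 17 were higher and 10 were lower, against 15.0% and 8.72% of all genes. The study's criterion was met by 9 in the higher and 8 in the lower direction, against 12.1% and 6.55% of all genes. The median log2 fold change was -0.06 over 39 acetyltransferase partners, 0.11 over 33 deacetylase partners, 0.02 over 29 other readers, -0.14 over 6 other acetyltransferases and 0.32 over 10 supply genes, beside 0.08 over all genes.

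MIDEAS and ACSS2 were the related genes that passed the adjusted threshold, in the higher direction. MIDEAS is the scaffold of the mitotic deacetylase complex, which holds HDAC1 and HDAC2. It was at 39.9 and 42.0 TPM in NC and at 79.6 and 84.1 TPM in sh-ANP32B, a log2 fold change of 0.98 (SE 0.14, adjusted p = 0.0323 by limma). ACSS2, which makes acetyl-CoA from acetate in the cytosol and nucleus, was at 39.5 and 34.3 TPM in NC and at 82.4 and 70.9 TPM in sh-ANP32B, a log2 fold change of 1.03 (SE 0.16, adjusted p = 0.0359 by limma). Both were also called after GC correction (0.83 and 0.92). Without NC replicate 1 the adjusted p was 0.110 for MIDEAS, and without NC replicate 2 it was 0.0773 for MIDEAS and 0.126 for ACSS2. Without the abundance trend it was 0.114 for both.

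The other partners past the study's criterion did not pass the adjusted threshold. Among acetyltransferase partners, the NuA4 helicase subunits RUVBL1 and RUVBL2 had log2 fold changes of -0.66 (adjusted p = 0.0713 by limma) and -0.53, and the SAGA subunit TADA2B one of 0.56. RBBP7, the partner of HAT1, which was picked out after its values were seen, was at 163 and 168 TPM in NC and at 115 and 118 TPM in sh-ANP32B. Its log2 fold change was -0.50 (SE 0.12, adjusted p = 0.0736 by limma), or -0.51 after GC correction (adjusted p = 0.0264 by limma). Among deacetylase partners, the histone chaperone subunit RBBP4 of the SIN3 and NuRD complexes had one of -0.62 (adjusted p = 0.0819 by limma), and the SIN3 scaffold SIN3B one of 0.68 (adjusted p = 0.0544 by limma).

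Among the other readers, SP140, a bromodomain protein of immune cells, had a log2 fold change of 1.14 (adjusted p = 0.0763 by limma), from 1.91 and 2.09 TPM in NC to 6.84 and 4.57 TPM in sh-ANP32B. DPF1, a subunit of neural BAF complexes, had one of -0.75 at 0.970 to 2.73 TPM, and the bromodomain ATPase ATAD2 one of -0.61 (adjusted p = 0.136 by limma). Among the supply genes, which include enzymes that consume NAD, PARP1 was at 247 TPM in both NC samples and at 164 and 172 TPM in sh-ANP32B, a log2 fold change of -0.55 (adjusted p = 0.0590 by limma). CD38 was at 8.19 and 8.26 TPM in NC and at 5.10 and 4.15 TPM in sh-ANP32B, a log2 fold change of -0.72 (adjusted p = 0.120 by limma).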

How the data were processed

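RNA-seq of 4 Kasumi-1 samples was analysed. The authors aligned the reads to hg38 with HISAT2 (2.0.5, per the submitters' processing notes) and deposited TPM values, a unit recognised from column sums of 997812 to 998314. The quantification program and annotation were not given in the sources used here. TPM keeps no depth, so depth was unknown. Of 18567 gene IDs, 16986 matched GENCODE 44.

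Genes that reached 1 TPM in 2 or more samples were tested on log2(TPM + 1), which understates changes of low genes, in limma 3.58.1 (R 4.3.3) with the trend option, two-sided, with Benjamini-Hochberg adjustment over all genes tested. The authors used DESeq2, a count method not run here. The GC correction was a loess fit (span 0.5) within each sample. Alternatives changed the pseudocount, filter, scaling, GC correction, replicate block, variance trend and samples. Scripts were tested on simulated data. The genes and lists were chosen with earlier results of these data known. Every listed gene was described; full values were given for genes past a threshold, for those with the largest non-overlapping changes and for the most abundant writer, eraser and reader. Related genes were named if they passed the adjusted threshold or had one of the 3 largest changes past the study's criterion in their list; RBBP7 was added after its values were seen.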

Additional observations from a re-analysis of the deposited data

How the results depend on the processing

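TPM values hold no depth, so counting error is not known, and with 2 samples per group the p-values rest on limma sharing variance across genes. Of the 33 genes, 29 kept their sign under every one of the 10 alternatives with all samples in which they were tested; HDAC11 was tested in 9. The causes of the changes below were not tested unless the alternative itself uses fewer samples or genes. HDAC10 ranged from 0.56 to 0.86 and was called in 7 of the 10, and HAT1 ranged from -0.77 to -0.68 and was called in 5. Members called lower numbered 0 and called higher 1 in the reported analysis. With a limit of 1 TPM in every sample, 1 member was called lower (HAT1, adjusted p = 0.0481) and 1 related gene lower. With median-of-ratios scaling, 1 member was called lower and 0 higher, and 2 met the study's criterion in the lower direction. Members not overlapping numbered 8 lower and 14 higher, against 3 and 17 in the reported analysis. Under this scaling 1 related gene was called lower, and the median was 0.0537 for writers and 0.113 for all members. With upper-quartile scaling, 0 members were called higher, and 2 met the criterion in the lower direction. Members not overlapping numbered 5 lower and 14 higher, and the medians were 0.0837 for writers and 0.14 for all members. With mitochondrial genes left out, 2 members met the criterion in the lower direction, 1 related gene was called lower and the writer median was 0.10. Members not overlapping then numbered 3 lower and 14 higher. The shares of all genes not overlapping under these alternatives are not given here, so these counts are description only. A pseudocount of 0.1 put 2 members past the criterion in the lower direction. With GC correction, 2563 genes were called in place of 559, with 1 member lower and 4 higher, 2 members past the criterion in each direction, 7 not overlapping in the lower direction, 12 related genes lower and 9 higher, and medians of -0.0271 for writers, 0.22 for erasers and 0.0949 for all members. The eraser to writer ratio then differed by 0.298 in place of 0.339. The same replicate numbers did not pair the samples (Pearson r of same-numbered deviations -0.0925). The replicate block gave 1473 genes, 1 member lower, and 2 related genes lower and 4 higher. The replicate block with GC correction gave 1742 genes, 1 member lower, 2 members past the criterion in each direction, 7 not overlapping in the lower direction, 7 related genes lower and 4 higher, and medians of -0.0271, 0.22 and 0.0949. Without the abundance trend, limma called 0 genes (3701 at an unadjusted p under 0.05), 0 members and 0 related genes, and ANP32B (-3.04) had an adjusted p of 0.0929.

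Leaving out 1 sample at a time, with the lone sample of a group assumed to vary like the other group, gave 282 to 3947 genes called, 0 to 2 members lower and 0 to 8 higher, 0 to 2 members past the criterion in the lower and 1 to 7 in the higher direction, 3 to 9 and 19 to 22 members not overlapping, and 0 to 10 related genes lower and 0 to 18 higher. Medians ran from 0.12 to 0.16 for writers, 0.26 to 0.48 for erasers, 0.00387 to 0.301 for readers and 0.15 to 0.26 for all members, and ANP32B from -3.20 to -2.88. Members called higher numbered 0 without either NC sample, and 8 without sh-ANP32B replicate 1 and 4 without replicate 2. Uncalled genes changed sign. KAT8 went to -0.0241 and HDAC3 to -0.0427 with median-of-ratios scaling, and HDAC3 to -0.0122 with upper-quartile scaling. With GC correction, with or without the block, KAT2A went to -0.0639, KAT5 to -0.0271, KAT8 to -0.0408 and HDAC3 to -0.0247. Leaving out 1 sample at a time, values ran from -0.0164 to 0.284 for KAT2A, -0.225 to 0.0347 for KAT6A, -0.191 to 0.0109 for KAT7, -0.0577 to 0.195 for KAT8, -0.0552 to 0.45 for NCOA1, -0.0895 to 0.0339 for HDAC1, -0.127 to 0.0513 for HDAC2, -0.227 to 0.134 for HDAC8, -0.0847 to 0.533 for SIRT7 and -0.127 to 0.479 for SIRT4.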
